A study of Mus musculus with 6 samples.

Results

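The genes described here mark macrophages and related myeloid cells in the kidney. They were chosen by name, 33 in all, and 30 were found among the 17550 genes of the deposited table of normalized counts. Fcrls, Aif1 and Trem2 matched no row and were not analysed here. The 30 genes were read in 3 classes: 14 resident macrophage genes of the C1q type, 10 monocyte and general myeloid genes, and 6 pan-leukocyte genes. All 30 had a mean normalized count of 10 or more and were tested.

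Bulk RNA sequencing compared saline-perfused kidneys of KC-Tie2 mice, a psoriasis model in which the keratinocytes of the skin overexpress the receptor tyrosine kinase Tie2 (gene Tek), with kidneys of Control mice. There were 3 poly(A)-selected libraries per genotype. Neither the strain, the age nor the promoter of the transgene is stated for these groups. Whether the libraries of a genotype are different animals is not stated either, and a p-value here reflects only how far these samples scatter. In the text a level is a normalized count, given by library or as mean ± SD (n = 3 per genotype). A log2 fold change is KC-Tie2 minus Control on the log2(value + 1) scale, given ± SE, and "rose" or "fell" is used only where limma gave an adjusted p under 0.05. The normalized counts summed to between 23647811 and 25495455 per library. The kidney markers Lrp2 and Slc34a1 were at 87701 or more in every library. Tek, whose transgene is meant for skin and not for kidney, was at 1073, 1081 and 989 in Control kidneys and 934, 933 and 976 in KC-Tie2 kidneys (log2 fold change -0.14 ± 0.07, limma adjusted p = 0.361).

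Kidney macrophages form a network around the tubules, fed by cells that settled early in life and by monocytes from the blood. Their survival depends on the receptor Csf1r, which binds the ligands Csf1 and Il34, and they are the main source of C1q, the molecule that starts the classical complement pathway. Recruited monocytes carry Ccr2, and Ptprc (CD45) covers every nucleated leukocyte. In bulk kidney, more cells of a type and more RNA per cell cannot be told apart. The defining macrophage genes Csf1r, Adgre1, C1qa, C1qb and C1qc were all detected in each of the 6 libraries.

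The C1q genes carried the only calls among the 30, so the sequence in front of them is shown first. C1qa, C1qb and C1qc lie side by side on the minus strand of chromosome 4, from 136607440 to 136626114 in the coordinates of the deposited table (build mm39 in the submitters' processing notes), a span of 18.7 kb. RefSeq promoter windows of build GRCm38.p6, from 250 bases before to 50 bases after a gene's start, were matched to 23 of the 30 genes. C1qa had no entry. The windows of C1qb, C1qc and, as a myeloid gene outside that locus, Cybb (a subunit of the phagocyte oxidase) are printed 5′ to 3′ with capitals marking GAGGAA, a short word bound by the myeloid transcription factor PU.1, or its reverse complement TTCCTC.
C1qb promoter (chr4:136886151-136886450, minus strand): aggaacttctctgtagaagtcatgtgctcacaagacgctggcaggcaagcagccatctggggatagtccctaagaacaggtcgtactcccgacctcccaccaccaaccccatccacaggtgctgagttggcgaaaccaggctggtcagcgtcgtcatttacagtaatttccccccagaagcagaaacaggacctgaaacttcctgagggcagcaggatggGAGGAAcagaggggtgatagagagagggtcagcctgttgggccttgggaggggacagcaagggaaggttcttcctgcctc
C1qc promoter (chr4:136892865-136893164, minus strand): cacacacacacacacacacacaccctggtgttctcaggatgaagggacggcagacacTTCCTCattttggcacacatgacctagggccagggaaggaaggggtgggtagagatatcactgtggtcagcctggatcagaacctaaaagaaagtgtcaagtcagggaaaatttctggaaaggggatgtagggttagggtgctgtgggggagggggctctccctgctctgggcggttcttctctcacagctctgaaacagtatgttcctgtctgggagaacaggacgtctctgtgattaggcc
Cybb promoter (chrX:9469275-9469574, minus strand): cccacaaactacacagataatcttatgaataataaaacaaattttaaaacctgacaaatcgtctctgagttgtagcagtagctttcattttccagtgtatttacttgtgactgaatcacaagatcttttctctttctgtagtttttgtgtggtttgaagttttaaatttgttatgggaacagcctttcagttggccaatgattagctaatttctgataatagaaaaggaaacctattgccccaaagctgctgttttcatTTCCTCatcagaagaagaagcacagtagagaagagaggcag
In the C1qb window the word begins at position -30, counted with the start as 1 and the base before it as -1, and reads forward. In the C1qc window it begins at -193, and in the Cybb window at 10, and in both it reads in reverse. GAGGAA, searched on both strands, was found in 14 of 26 windows of these genes (53.8%) and in 28.3% of all 32851 mouse windows of that length. The 26 windows belong to 23 genes, of which 13 had the word, and the windows of Fcgr3 overlap and hold the same match. TATAAA, searched the same way for comparison, was found in 4 of the 26 windows (15.4%) and in 13.6% of all windows. A match is a description of letters in a short window, not a binding site.

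The 3 chains of C1q rose in KC-Tie2 kidneys. C1qa was at 119, 141 and 135 in Control replicates 1 to 3 and 254, 259 and 248 in KC-Tie2 replicates 1 to 3. The lowest KC-Tie2 library lay well above the highest Control library, and the KC-Tie2 values were closer together than the Control values (SD 5.79 against 11.7). The means differed 1.92-fold (a log2 difference of 0.94 ± 0.13, limma adjusted p = 0.00742). C1qb was at 180, 190 and 191 in Control kidneys and 358, 339 and 260 in KC-Tie2 kidneys, which is 1.69-fold higher (a log2 difference of 0.76 ± 0.14, limma adjusted p = 0.021). Its Control libraries nearly coincided and KC-Tie2 replicate 3 was the lowest of its group. C1qc was at 138, 149 and 115 in Control kidneys and 226, 277 and 187 in KC-Tie2 kidneys, which is 1.7-fold higher (a log2 difference of 0.77 ± 0.17, limma adjusted p = 0.0449). The groups did not overlap at any of the 3 chains.

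These calls differed in how far they rested on single libraries. C1qa was called when any one of the 6 libraries was left out, with an adjusted p of at most 0.0461 over all alternatives. C1qb and C1qc stayed called when Control replicate 2 or KC-Tie2 replicate 3 was left out, and were not called when any one of Control replicate 1, Control replicate 3, KC-Tie2 replicate 1 and KC-Tie2 replicate 2 was. C1qc was also not called at a mean of at least 100 or in eBayes without robust estimation. Over all alternatives the adjusted p reached 0.116 for C1qb and 0.228 for C1qc. Within a library, the log2 ratio of C1qa to C1qb ran from -0.59 to -0.43 in Control kidneys and from -0.49 to -0.07 in KC-Tie2 kidneys, and that of C1qb to C1qc from 0.35 to 0.73 and from 0.29 to 0.66.

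**Figure D1:**
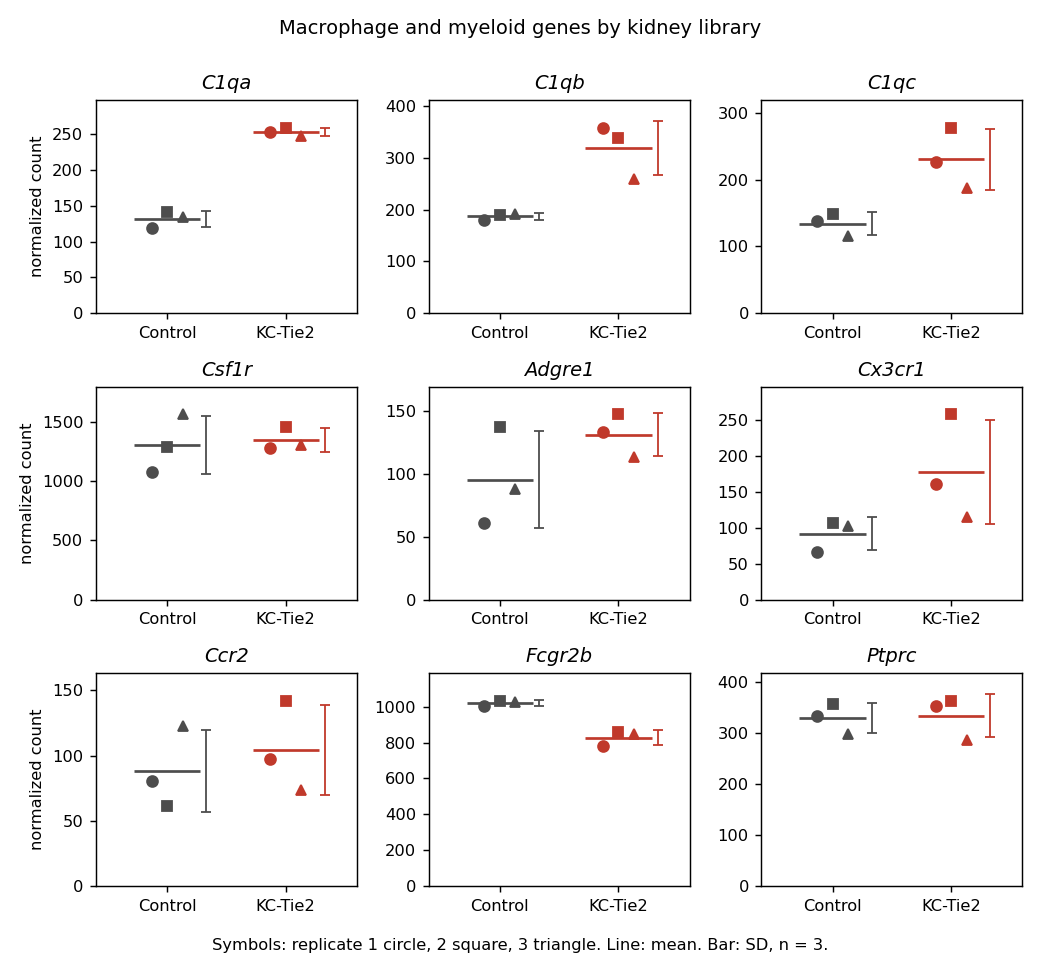
Normalized counts (vertical axis, from 0) of 9 macrophage and myeloid genes in the 3 Control and 3 KC-Tie2 kidney libraries; symbols are libraries, horizontal lines group means and bars the SD. The C1q chains separate by genotype, Fcgr2b separates in the other direction, and Csf1r, Adgre1, Ccr2 and Ptprc overlap between the groups.

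Across all 30 genes, 3 were called higher and 0 lower, where 0.855% and 0.838% of the 17539 genes tested were called in each direction. At an unadjusted p under 0.05 there were 16 higher and 1 lower, where 7.57% and 7.77% of all genes were. All KC-Tie2 libraries lay above all Control libraries at 11 genes and below them at 1, where 9.96% and 10% of all genes did so, and the groups overlapped at 18. The log2 fold change was above 0 at 27 of 30 genes and at 50.3% of all genes, and its median was 0.53 for the 30 genes and 0.00 for all genes. Without the C1q chains the median was 0.52, with 24 of 27 above 0, 13 higher at an unadjusted p under 0.05 and 0 called by limma. By the authors' deposited table, a set of 6 among the 30 genes had a step-up FDR under 0.05 and a ratio above 1, and 1 had a ratio below 1, where 1.82% and 2.08% of the tested genes did. The 6 were C1qa, C1qb, C1qc, Lyz2, Cx3cr1 and Cybb, and the gene with the lower level was Fcgr2b.

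**Figure D2:**
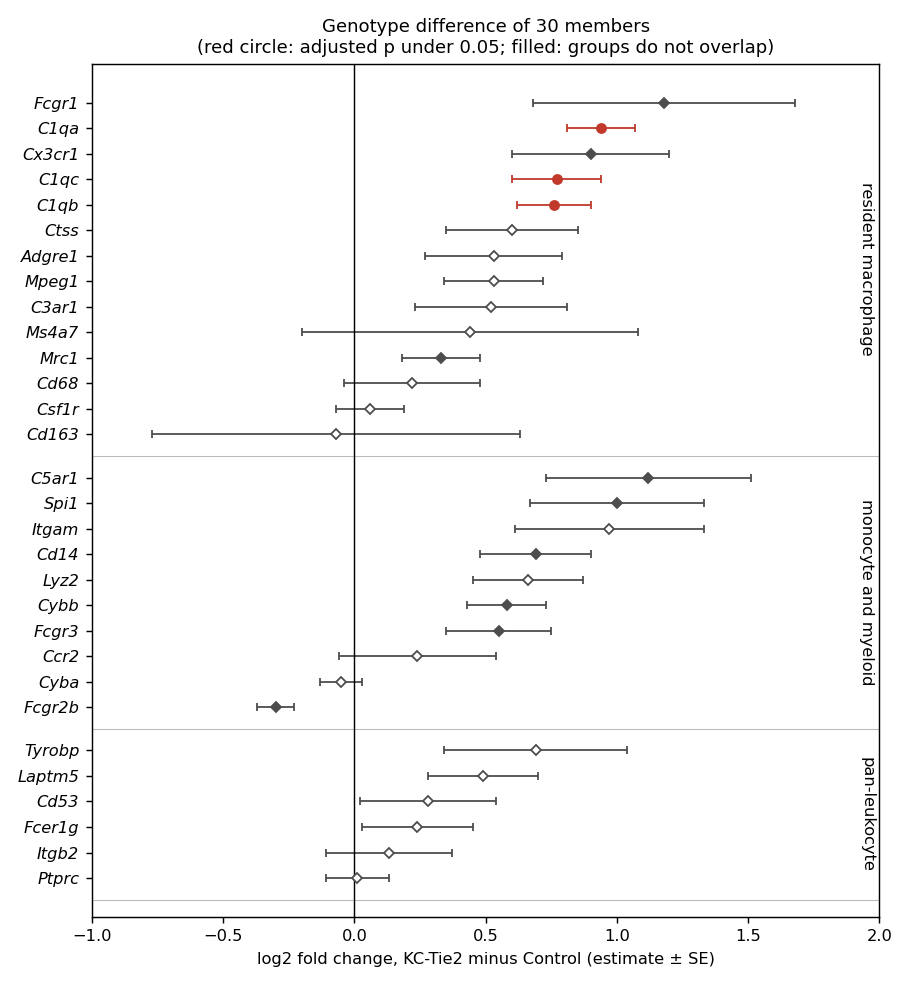
Log2 fold change, KC-Tie2 minus Control, with its SE (horizontal axis) for the 30 genes, ordered within the resident macrophage, monocyte and myeloid, and pan-leukocyte classes. Red circles are called genes and filled symbols are genes whose groups do not overlap; most estimates lie right of 0, Fcgr2b lies left of it, and the 6 pan-leukocyte genes all have open symbols.

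Among the other resident macrophage genes the estimates were spread out, and none was called. Csf1r, the receptor on which macrophage survival depends (chromosome 18, 61233670 to 61265221), was at 1074, 1283 and 1561 in Control kidneys and 1275, 1457 and 1305 in KC-Tie2 kidneys. The 3 KC-Tie2 values lay inside the Control range (log2 fold change 0.06 ± 0.13, limma adjusted p = 0.884). The annotated span of Csf1r overlaps Hmgxb3 on the other strand, and 873 of its 5774 exon bases in GENCODE release M21 also lie in exons of that gene, which had a mean of 1260 in Control and 1280 in KC-Tie2 kidneys. The labels do not say whether counting used the strand, so the share of reads that belongs to Csf1r is uncertain.

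Adgre1, which encodes the F4/80 antigen of mouse macrophages, was at 60.9, 137 and 87.9 in Control kidneys and 133, 147 and 113 in KC-Tie2 kidneys. Control replicate 2 lay inside the KC-Tie2 range and Control replicate 1 lay far below it (log2 fold change 0.53 ± 0.26, limma adjusted p = 0.381). Cx3cr1, the fractalkine receptor of resident macrophages and patrolling monocytes, was at 66.2, 107 and 103 in Control kidneys and 161, 258 and 115 in KC-Tie2 kidneys. The groups did not overlap, with KC-Tie2 replicate 3 just above the highest Control library (log2 fold change 0.90 ± 0.30, limma adjusted p = 0.201). The authors' deposited table gives it a ratio of 1.94 and an FDR of 0.0247. Mrc1, the mannose receptor, was at 109, 117 and 100 in Control kidneys and 139, 138 and 134 in KC-Tie2 kidneys, which did not overlap but differed by little (log2 fold change 0.33 ± 0.15, limma adjusted p = 0.313).

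Fcgr1, the high-affinity receptor for IgG, was at 5.25, 10.7 and 16.2 in Control kidneys and 34.4, 21.7 and 17.2 in KC-Tie2 kidneys. It had the highest log2 fold change of the 30 genes and one of the largest errors (1.18 ± 0.50, limma adjusted p = 0.282), and rested on 5 to 31 estimated counts per library. Ctss, the cathepsin that trims the invariant chain of MHC class II, was at 113, 153 and 119 in Control kidneys and 222, 257 and 128 in KC-Tie2 kidneys, where KC-Tie2 replicate 3 lay in the Control range (log2 fold change 0.60 ± 0.25, limma adjusted p = 0.291). Mpeg1, the pore-forming perforin-2 of phagocytes, had the same layout, with 257, 339 and 264 in Control kidneys and 380, 549 and 334 in KC-Tie2 kidneys (log2 fold change 0.53 ± 0.19, limma adjusted p = 0.219). Cd68, a lysosomal glycoprotein, was at 48.3, 40.5 and 32.5 in Control kidneys and 41.1, 60.9 and 40.8 in KC-Tie2 kidneys, with overlapping ranges (log2 fold change 0.22 ± 0.26, limma adjusted p = 0.765).

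The scavenger receptor gene Cd163 and the membrane protein gene Ms4a7 were too low and too variable to read. Cd163 was at 17.9, 10.7 and 8.12 in Control kidneys and 35.5, 4.17 and 8.17 in KC-Tie2 kidneys, so that the highest and the lowest of the 6 values were both in KC-Tie2 kidneys. Its log2 fold change was -0.07 ± 0.70 while the authors' deposited ratio was 1.28. Ms4a7 ran from 5.41 to 21.5 in Control kidneys and from 7.77 to 32.5 in KC-Tie2 kidneys, on 4 to 39 estimated counts.

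Monocyte and general myeloid genes had a median log2 fold change of 0.62. By limma 0 of 10 were called, 7 were higher and 1 lower at an unadjusted p under 0.05, while by the authors' deposited table there were 2 higher and 1 lower. Of all genes tested, limma called 0.855% higher and 0.838% lower, and 7.57% and 7.77% passed the unadjusted p. The authors' FDR marked 1.82% and 2.08%. The recruitment receptor Ccr2 was at 80.9, 61.1 and 123 in Control kidneys and 97.7, 142 and 73.5 in KC-Tie2 kidneys. The values interleaved (log2 fold change 0.24 ± 0.30, limma adjusted p = 0.774). Lyz2, lysozyme of monocytes, macrophages and granulocytes, was at 189, 306 and 256 in Control kidneys and 449, 440 and 298 in KC-Tie2 kidneys. KC-Tie2 replicate 3 lay just below Control replicate 2 (log2 fold change 0.66 ± 0.21, limma adjusted p = 0.185, authors' deposited FDR 0.0266). Cd14, the co-receptor for bacterial lipopolysaccharide, was at 79.8, 85.9 and 64.9 in Control kidneys and 142, 142 and 93.5 in KC-Tie2 kidneys, without overlap (log2 fold change 0.69 ± 0.21, limma adjusted p = 0.13).

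Spi1, which encodes PU.1, was at 16.8, 32.2 and 36.5 in Control kidneys and 64.4, 64.2 and 40.8 in KC-Tie2 kidneys. The groups did not overlap, and the gap between Control replicate 3 and KC-Tie2 replicate 3 was small (log2 fold change 1.00 ± 0.33, limma adjusted p = 0.164). Itgam, the alpha chain of the complement receptor Mac-1, was at 22.8, 37.2 and 29.8 in Control kidneys and 91, 66.7 and 32.7 in KC-Tie2 kidneys (log2 fold change 0.97 ± 0.36, limma adjusted p = 0.218). KC-Tie2 replicate 3 again lay within the Control range.

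Both membrane subunits of the phagocyte oxidase were measured. Cybb, the catalytic chain found mainly in phagocytes, was at 133, 139 and 142 in Control kidneys and 191, 257 and 181 in KC-Tie2 kidneys (log2 fold change 0.58 ± 0.15, limma adjusted p = 0.091, authors' deposited FDR 0.0479). Cyba, its partner chain, which many cell types express, was at 3760, 3360 and 3940 in Control kidneys and 3343, 3670 and 3646 in KC-Tie2 kidneys (log2 fold change -0.05 ± 0.08, limma adjusted p = 0.821). The groups were apart at Cybb and overlapped at Cyba. The difference between their responses was not tested.

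The receptors for complement fragments were low. C5ar1, the C5a receptor, was at 9.45, 15.7 and 10.8 in Control kidneys and 26.6, 30 and 23.6 in KC-Tie2 kidneys, without overlap, on 8 to 36 estimated counts (log2 fold change 1.12 ± 0.39, limma adjusted p = 0.184). C3ar1, the C3a receptor, was at 35.7, 51.2 and 50.1 in Control kidneys and 57.7, 100 and 47.2 in KC-Tie2 kidneys (log2 fold change 0.52 ± 0.29, limma adjusted p = 0.437). C3, the precursor of its ligand, named after its values were seen, was at 477, 415 and 254 in Control kidneys and 2154, 1974 and 925 in KC-Tie2 kidneys (log2 fold change 2.09 ± 0.45, limma adjusted p = 0.148, authors' deposited FDR 0.000174). All KC-Tie2 libraries were higher at C3 and C5ar1, and the groups overlapped at C3ar1.

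Low-affinity receptors for the Fc part of IgG lay on both sides of 0, and neither was called. Fcgr2b, the only inhibitory one, was at 1004, 1032 and 1025 in Control kidneys and 778, 856 and 847 in KC-Tie2 kidneys. The Control values agreed closely (SD 14.2 on a mean of 1021) and every KC-Tie2 library was lower, with a log2 fold change of -0.30 ± 0.07 (limma adjusted p = 0.0588, authors' deposited FDR 0.0484). Fcgr3, an activating receptor, was at 51.5, 47.9 and 48.8 in Control kidneys and 79.9, 76.7 and 62.6 in KC-Tie2 kidneys (log2 fold change 0.55 ± 0.20, limma adjusted p = 0.209). All KC-Tie2 libraries were higher at Fcgr3 and lower at Fcgr2b. These genes are close paralogs within one cluster on chromosome 1, so the share of reads counted for each is uncertain. Of the 5790 exon bases of Fcgr2b, 155 also lie in exons of the lncRNA Gm38204 on the other strand. Gm38204 had a mean of 19.6 in Control and 10.6 in KC-Tie2 kidneys, against 1021 and 827 for Fcgr2b. The reads in the shared bases were not separated.

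The signalling adaptors of these receptors overlapped between the genotypes. Tyrobp (DAP12), which couples many myeloid receptors to the kinase Syk, was at 24.2, 35.5 and 56.8 in Control kidneys and 51.1, 91.7 and 45.4 in KC-Tie2 kidneys (log2 fold change 0.69 ± 0.35, limma adjusted p = 0.384). Fcer1g, the common gamma chain, was at 46.2, 49.6 and 52.8 in Control kidneys and 52.2, 66.7 and 58.1 in KC-Tie2 kidneys (log2 fold change 0.24 ± 0.21, limma adjusted p = 0.651).

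The pan-leukocyte genes were the remaining class. Of the 6, which include the 2 adaptors, 0 were called by limma, 1 was higher at an unadjusted p under 0.05 (Laptm5), 0 passed in the authors' deposited table, and at 6 the groups overlapped. Of all 17539 genes tested, 0.855% were called higher and 0.838% lower, and the groups overlapped at 14031. These counts therefore do not set the class apart from other genes. The median log2 fold change was 0.26. The highest in the class was 0.69 at Tyrobp, the adaptor of many myeloid receptors, so the class is not free of myeloid genes. Ptprc, the CD45 phosphatase, was at 334, 357 and 299 in Control kidneys and 354, 363 and 286 in KC-Tie2 kidneys (log2 fold change 0.01 ± 0.12, limma adjusted p = 0.974). The ranges overlapped almost fully. Laptm5, a lysosomal membrane protein of blood cells, was at 194, 259 and 154 in Control kidneys and 281, 342 and 226 in KC-Tie2 kidneys (log2 fold change 0.49 ± 0.21, limma adjusted p = 0.299). The tetraspanin gene Cd53 and the beta-2 integrin gene Itgb2 had log2 fold changes of 0.28 ± 0.26 and 0.13 ± 0.24. That the pan-leukocyte class differed from the other classes was not tested.

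Ratios within a library cancel the library's scale, and 4 were compared between the genotypes by an exact two-sided permutation test, in which 3 against 3 samples cannot give a p below 0.1. All 4 use the C1qa values called above, so they are no separate support for that call. The log2 ratio of C1qa to Csf1r was -3.17, -3.17 and -3.52 in Control kidneys and -2.32, -2.49 and -2.39 in KC-Tie2 kidneys. The groups were apart, with a difference of 0.89 (exact p = 0.1, adjusted over the 4 ratios 0.2), though the share of reads that belongs to Csf1r is uncertain. The log2 ratio of C1qa to Ptprc was -1.48, -1.33 and -1.14 in Control kidneys and -0.48, -0.48 and -0.21 in KC-Tie2 kidneys, a difference of 0.93 (exact p = 0.1, adjusted 0.2). For C1qa against Adgre1 (0.42, exact p = 0.3, adjusted 0.3) and against Ccr2 (0.70, exact p = 0.2, adjusted 0.267) the groups overlapped. Without Control replicate 2 the difference for Adgre1 was 0.17, and without Control replicate 1 it was 0.63. Without Control replicate 3 the difference for Ccr2 was 0.45.

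**Figure D3:**
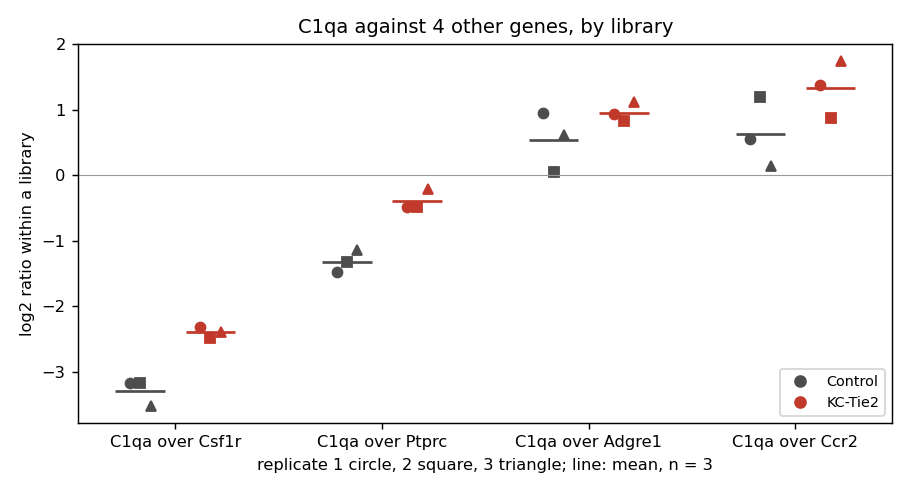
Log2 ratio of C1qa to Csf1r, Ptprc, Adgre1 and Ccr2 within each library (vertical axis); symbols are the 3 Control and 3 KC-Tie2 libraries and lines the group means. The genotypes are apart for Csf1r and Ptprc and overlap for Adgre1 and Ccr2.

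Per kilobase of annotated exon (GENCODE release M21), the order of the levels in Control kidneys was led by Cyba at 3550 normalized counts per kb, followed by Csf1r (226), Lyz2 (190), Fcgr2b (176), C1qb (172) and C1qa (127). In KC-Tie2 kidneys the levels per kb were 300 for Lyz2, 293 for C1qb, 244 for C1qa, 233 for Csf1r and 143 for Fcgr2b. At the low end were Fcgr1 (4.15 in Control), Ms4a7 (2.72) and Cd163 (2.24). The order of the genes was not tested.

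Libraries of one genotype differed along the whole set. KC-Tie2 replicate 2 was the highest of the 6 libraries at 17 of the 30 genes, KC-Tie2 replicate 1 at 10 and KC-Tie2 replicate 3 at 0. KC-Tie2 replicate 3 was the lowest of its group at 23 genes. Control replicate 1 was the lowest of all 6 at 16. The median difference from the Control mean was 0.49, 0.85 and 0.25 on the log2 scale in KC-Tie2 replicates 1 to 3. For the pan-leukocyte class alone it was 0.25, 0.45 and 0.21, and for the C1q chains 0.93, 0.98 and 0.49. With Control replicates 1, 2 and 3 and then KC-Tie2 replicates 1, 2 and 3 left out, the genes called higher numbered 1, 3, 1, 1, 1 and 8, where 0.188%, 1.31%, 0.2%, 0.251%, 0.143% and 1.77% of all genes were. The 8 without KC-Tie2 replicate 3 were C1qa, C1qb, C1qc, Lyz2, Ctss, Itgam, Cx3cr1 and Cd14.

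**Figure D4:**
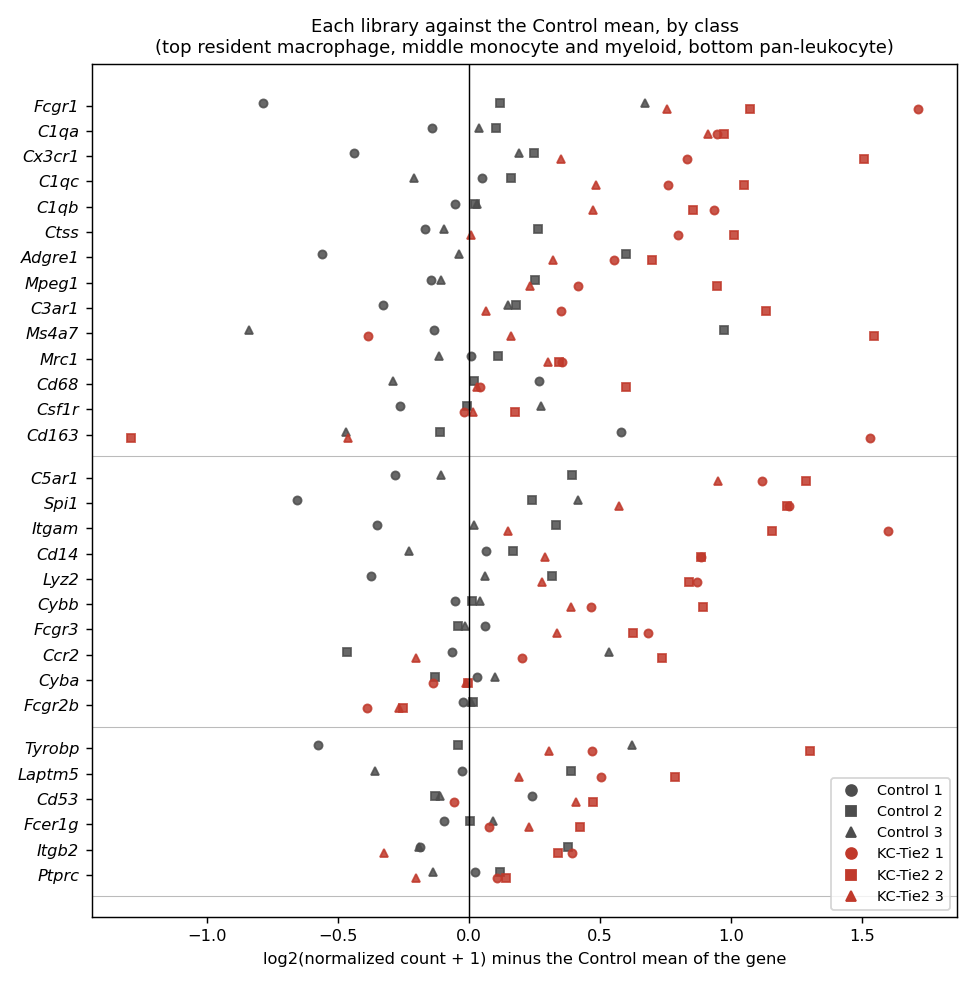
Each library's log2(normalized count + 1) minus the gene's Control mean (horizontal axis) for the 30 genes in 3 classes; grey symbols are Control and red symbols KC-Tie2 libraries, with 1 shape per replicate. KC-Tie2 replicate 3 (red triangles) is the lowest of its group at 23 genes and KC-Tie2 replicate 2 (red squares) the highest at 20.

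Ligands and partners were counted from lists of other genes, and the 4 named as called were followed through the alternatives after their values had been seen. Of 24 ligands and chemokines that act on these cells, 13 were in the table and 3 rose: Csf1, Mif and Cxcl16. Over all genes tested 0.855% were called higher. At an unadjusted p under 0.05 this list had 9 higher and 1 lower, where 7.57% and 7.77% of all genes were. There were 7 higher and 0 lower by the FDR of the authors' deposited table, which marked 1.82% and 2.08% of all genes tested. Csf1, the main ligand of Csf1r, was at 195, 251 and 185 in Control kidneys and 344, 325 and 314 in KC-Tie2 kidneys (1.57-fold, log2 fold change 0.65 ± 0.13, limma adjusted p = 0.0344). The groups were clearly apart. Il34, the other ligand of the receptor, named after its values were seen, was at 274, 280 and 322 in Control kidneys and 218, 252 and 233 in KC-Tie2 kidneys, all lower than every Control library (log2 fold change -0.32 ± 0.12, limma adjusted p = 0.215). Mif, a macrophage-active cytokine that tubule cells also make, rose 1.36-fold (1645 ± 59.9 to 2246 ± 79.6, limma adjusted p = 0.00861). Cxcl16, a membrane-bound chemokine, rose 1.44-fold (624 ± 48.7 to 907 ± 148, limma adjusted p = 0.0468). The call of Csf1 and that of Cxcl16 were each kept when Control replicate 2 or KC-Tie2 replicate 3 was left out and lost without each of the other 4 libraries, with adjusted p up to 0.154 and 0.198. With all 6 libraries, Cxcl16 was also not called at a mean of at least 100 (adjusted p = 0.0532) or in eBayes without robust estimation (adjusted p = 0.0665), whereas Csf1 was called in both. The call of Mif was lost when either Control replicate 3 or KC-Tie2 replicate 2 was left out, with adjusted p up to 0.059. Ccl2, the ligand of Ccr2, matched no row.

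Of 35 further macrophage genes 26 were tested, 1 rose and 0 fell, where 0.855% and 0.838% of all genes were called, with a median log2 fold change of 0.35. At an unadjusted p under 0.05 there were 11 higher and 3 lower, where 7.57% and 7.77% of all genes were. There were 2 higher and 1 lower by the FDR of the authors' deposited table, which marked 1.82% and 2.08% of all genes tested. The one that rose was Lgmn, the lysosomal protease legumain, which proximal tubule cells also express strongly (9230 ± 210 to 14930 ± 2344, limma adjusted p = 0.0128). The call of Lgmn was kept when Control replicate 2 or KC-Tie2 replicate 3 was left out and lost without each of the other 4 libraries, with adjusted p up to 0.0736. The 26 genes summed to 38800 to 42700 in Control and 68300 to 121000 in KC-Tie2 kidneys, and most of that difference lay in genes not named here. Their log2 fold changes ran from -0.68 to 2.21. All KC-Tie2 libraries lay above all Control libraries at 9 and below them at 1, where 9.96% and 10% of all genes did so. Further monocyte genes (15 tested), pan-leukocyte genes (18) and partners of the Fc receptors and the oxidase (11) had 0 called by limma, with medians of 0.17, 0.16 and 0.36. At an unadjusted p under 0.05 they had 2, 1 and 5 higher and 1, 0 and 0 lower, while an FDR under 0.05 from the authors' deposited table marked 1, 0 and 0 higher and 1, 0 and 0 lower. The 2 genes with the smallest p were Plac8 and Ace for monocytes (limma adjusted p = 0.0649 and 0.0724), Vav1 and Coro1a for all leukocytes (0.192 and 0.457), and Plcg2 and Pik3cg for the partners (0.123 and 0.178). Plac8 and Ace went opposite ways, with log2 fold changes of 0.85 ± 0.20 and -0.72 ± 0.15. Ace had a mean of 6157 in Control and 3721 in KC-Tie2 kidneys (authors' deposited FDR 5.7e-06). The 15 further monocyte genes summed to 6710 to 8510 in Control and 4850 to 5600 in KC-Tie2 kidneys, most of it Ace. Which cells gave the Ace reads was not tested, so its lower level is not a reading of monocytes. Vav1, Coro1a, Plcg2 and Pik3cg all had log2 fold changes above 0.

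Markers of other cell types were summed in the same libraries. Over all genes tested 0.855% were called higher and 0.838% lower. Of 13 neutrophil markers 3 were in the table and all 3 rose (S100a8, S100a9 and Csf3r). Their summed level was 8.4 to 17.3 in Control kidneys and 58.1 to 145 in KC-Tie2 kidneys, while Ly6g, Mpo and Elane matched no row. S100a8 and S100a9 averaged 0.275 and 2.63 in Control kidneys, so they reached the mean of 10 only through KC-Tie2 kidneys. That all 3 rose was therefore partly set by the filter. Neutrophils also express Itgam, Itgb2, Lyz2, Cybb, Fcgr3, Tyrobp, Fcer1g, Cd14 and C5ar1, and their part in those values was not tested. Of 9 B and plasma cell markers 5 were in the table and 3 fell (Jchain, Igha and Igkc). The other 2 had log2 fold changes above 0, up to 0.60, with overlapping groups. The summed level was 451 to 760 in Control kidneys and 320 to 351 in KC-Tie2 kidneys. Igha and Igkc, with Control means of 287 and 164, made up most of that sum. Of 10 dendritic cell markers 5 were in the table and 0 were called by limma, or at an unadjusted p under 0.05, or in the authors' deposited table. Their summed level was 583 to 648 in Control and 488 to 661 in KC-Tie2 kidneys. Most of it was Zbtb46 (Control mean 445, log2 fold change -0.11 ± 0.12). Flt3 was lower in every KC-Tie2 library (17.5 ± 7.73 to 7.65 ± 2.28, log2 fold change -1.06 ± 0.53, limma adjusted p = 0.37), as were 10% of all genes. The log2 fold change was above 0 at 3 of the 5. Of 17 T and NK cell markers 3 were in the table, with a summed level of 40.6 to 80.9 and 32.7 to 51.1, and 0 were called by limma (1 lower at an unadjusted p under 0.05, 0 by the authors' deposited FDR). The lower one was Cd4 (log2 fold change -1.10 ± 0.49), and Lck was at 0.16 ± 0.51. Of 7 mast cell markers 2 were in the table and 0 were called, Kit at -0.25 ± 0.08 and Ms4a2 at 1.65 ± 0.75. Of 5 platelet markers only Itga2b was in the table (0.05 ± 0.17, not called). Haemoglobin and Alas2, a measure of residual blood, had a summed level of 1470 to 2200 in Control kidneys, against 5079 in KC-Tie2 replicate 1, 973 in replicate 2 and 4011 in replicate 3. The part of residual blood in the values of the myeloid genes was not tested. The 6 endothelial markers summed to 6620 to 7430 in Control kidneys and 6730 to 7290 in KC-Tie2 kidneys. The 5 proximal tubule markers summed to 315000 to 336000 in Control kidneys and to 269000 to 309000 in KC-Tie2 kidneys, without overlap. Lrp2 and Slc34a1, with Control means of 163300 and 109000, made up most of that sum. By limma 0 of the 5 were called, and 1 was lower at an unadjusted p under 0.05. Their median log2 fold change was -0.06, with 1 above 0, and the groups overlapped at 3. The part of the lower sum in the values of the myeloid genes was not tested.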

How the data were processed

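RNA of 6 mouse kidneys (3 Control, 3 KC-Tie2, grouped by their titles) was measured. Per the submitters' processing notes the authors used Partek 12.5.0, STAR, DESeq2 and the build mm39, with no role given. The values deposited by the authors are a signal: normalized counts, read here as estimated counts scaled by a factor for each library. Between 68.5% and 70.8% of values under 60 lay within 0.01 of a multiple of 1 step, which puts the depth between 18800000 and 29500000 estimated counts per library and sets the precision of low genes. The authors' deposited table of p-values, step-up FDR and ratio (KC-Tie2 against a group headed WT) was quoted, not retested.

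Values were taken as log2(value + 1). Genes averaging 10 or more, 17539 in all, were fitted on genotype with limma 3.58.1 in R 4.3.3 (eBayes with trend and robust), and p-values were two-sided and Benjamini-Hochberg adjusted over all genes tested. The fit was tested on simulated data. The alternatives changed the pseudocount (0.5 or 5), dropped the filter or raised it to 100, or used median-ratio rescaling, quantile normalization, the replicate block or eBayes without robust; each library was also left out in turn. The genes, lists and tests were chosen with earlier results of these data known. Any of the genes could be named. From each other list, up to 4 called genes of largest change, or the 2 of smallest p, could be named. C3, Il34 and further names fall outside that rule. Descriptions used Python 3.11.15, pandas 2.3.3, numpy 2.4.6 and scipy 1.17.1, figures matplotlib 3.10.9.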

Additional observations from a re-analysis of the deposited data

How the results depend on the processing

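The count of the 30 genes called higher (3) and that of resident macrophage genes (3) stayed within 1.5 times under every alternative that used all 6 libraries. Median-ratio rescaling and dropping the filter could hardly change a call. The log2 rescaling factors were 0.0034 to 0.0035 in all libraries, and 17539 of the 17550 genes already passed the filter. Leaving out 1 library gave 1 to 8 for all 30 genes, 1 to 5 for resident macrophage genes, 0 to 3 for monocyte and myeloid genes, and 48 to 682 for all genes tested, beside 297 with all libraries. The fits without a library hold fewer samples. Quantile normalization gave 1 gene called lower, Fcgr2b (adjusted p = 0.0477, range 0.0477 to 0.213 over its alternatives). With the replicate block 581 of all genes were called, and 4 of the 30 were called higher, with Mpeg1 added (adjusted p = 0.0256, range 0.0256 to 0.498). Whether the replicate numbers pair the samples is not stated. Deviations of same-numbered libraries correlated at 0.178, -0.096 and 0.017 across genes, and 3 of 6 libraries correlated best with their own number. With 3 libraries per genotype these values cannot decide it. The sign turned at Cd163 with a pseudocount of 5 (0.02). With 1 library left out, log2 fold changes ran from -0.31 to 0.53 at Cd163, -0.08 to 0.19 at Csf1r, -0.05 to 0.12 at Ptprc, 0 to 0.51 at Ccr2 and -0.11 to 0.93 at Ms4a7, where the sign also turned. The cause was not tested. Values at other genes that moved by over 1.5 times include those of Adgre1 (0.25 without Control replicate 1, 0.82 without Control replicate 2), Cd68 (0.04 without KC-Tie2 replicate 2, 0.36 without Control replicate 1), Itgb2 (0.01 without KC-Tie2 replicate 1, 0.37 without KC-Tie2 replicate 3), Cyba (-0.12 without Control replicate 2, 0 without Control replicate 3) and Cd53 (0.18 without KC-Tie2 replicate 2, 0.44 without KC-Tie2 replicate 1). Without KC-Tie2 replicate 2 the values were 0.39 at Tyrobp, 0.15 at Fcer1g, 0.59 at Cx3cr1, 0.32 at Mpeg1 and 0.21 at C3ar1. Without Control replicate 3 Laptm5 was at 0.31, and without Control replicate 1 Fcgr1 was at 0.78. The ratios of C1qa to Csf1r, Ptprc, Adgre1 and Ccr2 kept their sign, with ranges of 0.77 to 0.95, 0.84 to 1.02, 0.17 to 0.63 and 0.45 to 0.98 with 1 library left out. Depth limits Cd163, Ms4a7, Fcgr1 and C5ar1, which had under 10 estimated counts in some library.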
